A study of Mus musculus with 6 samples.

Results

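The 9 genes described here encode transporters, gap junction channels, enzymes and a receptor that serve the housekeeping work of astrocytes: Slc1a2, Slc1a3, Glul, Slc4a4, Gja1, Gjb6, Aldh1l1, Aldoc and Fgfr3. Every isoform whose name carries one of these symbols was taken from the table of isoform counts, which gave 75 isoforms of 133944, and the isoforms of a symbol were summed to a gene count, which gave 9 genes of 53354 symbols. The counts come from total RNA of the hippocampus of 6 mice, each 3 months old and labelled C57BL/6, with 1 library per mouse. In 3 N-cre mice, the controls, Cre recombinase is expressed from the nestin promoter. The 3 N-cre;Fox1 mice, written Nes-Cre;R26-Rbfox1 +/flox in the study, carry the same Cre and, in addition, 1 copy of an Rbfox1 cDNA at Gt(ROSA)26Sor behind a CAG promoter and a loxP-flanked STOP cassette that Cre removes. Rbfox1 is an RNA-binding protein that regulates splicing. The study describes its expression in these mice as neuronal, the targeted allele was made in 129/sv embryonic stem cells and crossed to C57BL/6J, and the controls lack the R26-Rbfox1 allele itself. The question put to the 9 genes was whether their level or their isoform use in the hippocampus differed between mice with and without the transgene.

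Astrocytes clear glutamate from synapses with the transporters GLT-1 and GLAST, turn it into glutamine and hand it back to neurons. They take up potassium, move bicarbonate across their membrane and share small molecules through gap junctions. In the adult hippocampus these genes are standard markers of mature astrocytes, so that in a bulk sample fewer astrocytes and less of an RNA per astrocyte cannot be told apart.

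The total expected count per mouse, an estimate of read pairs assigned to isoforms, lay between 40.5 M and 62.1 M, and the 9 genes together took 0.495% to 0.540% of it. The sum of the 2 Rbfox1 isoforms was 288, 273 and 277 CPM (counts-per-million) in N-cre replicates 1, 2 and 3 and 301, 256 and 288 CPM in N-cre;Fox1 replicates 1, 2 and 3, so that the genotypes overlapped. The isoform Rbfox1-202 was at 33.1, 33.6 and 35.5 CPM in N-cre mice and at 45.9, 40.9 and 44.4 CPM in N-cre;Fox1 mice, without overlap. Markers of other cells were detected in every library, and 0 of the markers were at 0 in all 6 mice. The summed level of 9 choroid plexus and ependyma markers was 41.5 to 54.7 CPM in 4 libraries but 2270 CPM in N-cre replicate 3 and 5079 CPM in N-cre;Fox1 replicate 2, and the counts of genes called, the isoform shares that did not overlap and the main Fgfr3 results are also given without these 2 libraries. The summed levels of the neuronal, oligodendrocyte, oligodendrocyte precursor, microglial and vascular markers overlapped between the genotypes. The Xist count was above 1000 in replicate 1 of each genotype and in no other library.

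Sequences at or beside parts in which isoforms of 3 genes differ are shown here. Isoforms of Fgfr3 and Slc1a2 also differ elsewhere, for example in where their models start, so that an isoform count is not a count of the printed part alone. The sequences were read 5′ to 3′ from GENCODE transcripts on mm10, and all lie on the plus strand. Fgfr3 has alternative exons, IIIb and IIIc, that code for the end of the third immunoglobulin-like domain and set which fibroblast growth factors the receptor binds. The 151 nt of exon IIIb (chr5:33731281-33731431) are coding sequence of Fgfr3-211, and the 145 nt of exon IIIc (chr5:33732117-33732261) are coding sequence of the main Fgfr3 isoforms. The first 100 nt of the 685 nt intron that follows exon IIIb (chr5:33731432-33731531) hold the hexamer TGCATG, the sequence that Rbfox proteins bind, printed in capitals.
Fgfr3 exon IIIb: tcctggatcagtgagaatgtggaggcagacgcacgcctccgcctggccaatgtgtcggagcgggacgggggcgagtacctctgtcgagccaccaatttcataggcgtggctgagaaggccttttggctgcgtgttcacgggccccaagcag
Fgfr3 exon IIIc: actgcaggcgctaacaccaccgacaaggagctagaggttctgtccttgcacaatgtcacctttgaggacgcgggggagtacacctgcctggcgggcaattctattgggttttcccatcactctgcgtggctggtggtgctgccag
Fgfr3 intron after exon IIIb: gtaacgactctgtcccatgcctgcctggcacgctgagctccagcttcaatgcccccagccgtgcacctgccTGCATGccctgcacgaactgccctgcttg

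Slc1a2 isoforms differ in their coding ends, and the models of Slc1a2-201 and Slc1a2-202 also start at different positions (chr2:102706438 and chr2:102658659). The last 69 coding nt of Slc1a2-202 (chr2:102781463-102781531) lie in its last exon and encode the carboxyl terminus known as GLT-1a. In Slc1a2-201 the exon before runs on past its splice site, and the last 36 coding nt (chr2:102777656-102777691) encode the terminus known as GLT-1b. The isoform Aldh1l1-207 lacks 52 nt of coding exon (chr6:90569793-90569844) that Aldh1l1-201 holds, has 4 nt more at the end of the exon before, and is annotated as a target of nonsense-mediated decay.
Slc1a2-202 coding end: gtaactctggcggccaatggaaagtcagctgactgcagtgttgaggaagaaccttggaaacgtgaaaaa
Slc1a2-201 coding end: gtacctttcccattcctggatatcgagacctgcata
Aldh1l1 exon stretch left out of Aldh1l1-207: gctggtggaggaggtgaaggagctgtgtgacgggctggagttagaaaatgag

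Levels of different genes were compared per transcript length, as TPM (transcripts-per-million), over all 6 mice. Glul was the most abundant of the 9, at 1038 ± 73.2 TPM (SD, n = 6), followed by Aldoc at 839 ± 34.5, Slc1a2 at 432 ± 21.6 and Slc1a3 at 339 ± 9.11 TPM. Gja1 stood at 165 ± 6.93 TPM, Fgfr3 at 83.0 ± 7.88, Gjb6 at 59.6 ± 9.30, Slc4a4 at 40.5 ± 1.31 and Aldh1l1 at 37.9 ± 3.68 TPM. The lowest mouse of each gene lay above the highest mouse of the next gene in this order, except between Fgfr3 and Gjb6 and between Slc4a4 and Aldh1l1, whose ranges overlapped. The order was the same in each genotype by its mean, and the plot of TPM shows the spread.

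**Figure D1:**
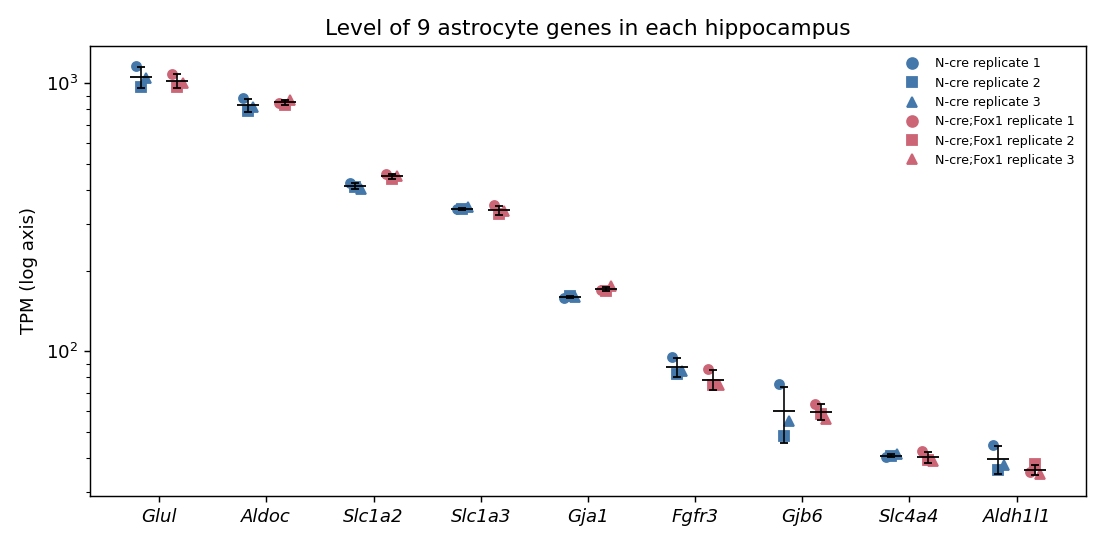
Level of each gene in each mouse in TPM on a log axis, ordered by the mean over 6 mice; colours mark the genotype, symbols the replicate, and bars the mean and SD of 3 mice. Glul lies near 1038 TPM and Aldh1l1 near 37.9 TPM, and the genotypes of each gene sit close together.

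In the comparison of gene sums, 0 of the 9 genes passed an adjusted p of 0.05 in edgeR's quasi-likelihood test, and 0 passed in DESeq2 or limma-voom, while 0.0264% of the 18924 genes tested passed in edgeR. All 9 passed the filter on low counts. At an unadjusted p under 0.05 the test picked Slc1a2 and Gja1, which were higher in N-cre;Fox1 mice, and Fgfr3, which was lower, that is 3 of 9 genes against 6.19% of all genes tested. This count was 1 of 9 without N-cre replicate 3 and also without N-cre;Fox1 replicate 3. Slc1a2 and Gja1 were also the 2 genes of the 9 whose genotypes did not overlap, against 12.2% of all genes. Of the 9 genes, 3 had a fold change above 0 on the log2 scale and 6 below, with a median of -0.03, beside a median of 0.00 over all genes. The adjusted p of the 9 genes lay between 0.756 and 0.992 in edgeR, so that none of the differences below is past the threshold. Without the 2 libraries rich in choroid plexus markers, 0 of 9 had an adjusted p under 0.05 and 2 an unadjusted p under 0.05.

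Slc1a2 (ENSMUSG00000005089.15, chr2:102658659-102790784) encodes GLT-1, which takes up most of the glutamate released in the forebrain. It was measured at 2108, 2023 and 1994 CPM in N-cre replicates 1, 2 and 3 and at 2277, 2143 and 2222 CPM in N-cre;Fox1 replicates 1, 2 and 3. All 3 N-cre;Fox1 mice lay above all 3 N-cre mice, by a small margin. The log2 fold change was 0.12 ± 0.04 (SE), which is 8.45% higher, with an adjusted p of 0.769 in edgeR, and it lay between 0.10 and 0.15 with each mouse left out in turn. The antisense gene Gm13872 overlaps exons of Slc1a2, with a mean of 0.5 expected counts.

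Slc1a3 (ENSMUSG00000005360.14, chr15:8634124-8710764) encodes GLAST, the other glutamate transporter of astrocytes. It ranged from 598 to 605 CPM in N-cre and from 566 to 625 CPM in N-cre;Fox1 mice, with a log2 fold change of -0.02 ± 0.04. The N-cre range lay within the N-cre;Fox1 range, so that Slc1a2 and Slc1a3 were not both higher, and the difference between the 2 transporters was not tested. Glul (ENSMUSG00000026473.15, chr1:153899944-153909723) encodes glutamine synthetase, which makes glutamine from the glutamate that both transporters bring in. It was at 1374, 1144 and 1236 CPM in N-cre and at 1290, 1128 and 1184 CPM in N-cre;Fox1 mice, with a log2 fold change of -0.06 ± 0.07. Replicate 1 was the highest mouse for Glul in each genotype. Teddm2, a gene on the opposite strand, overlaps exons of Glul with a mean of 94.7 expected counts, and reads of the 2 genes may be mixed, because the strand setting of the counting is not given in the sources used here. Slc4a4 (ENSMUSG00000060961.14, chr5:88886818-89239653) encodes NBCe1, a sodium bicarbonate cotransporter. It ranged from 133 to 137 CPM in N-cre and from 127 to 142 CPM in N-cre;Fox1 mice, with a log2 fold change of -0.03 ± 0.04.

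Gja1 and Gjb6 encode connexin 43 and connexin 30, which form the channels that couple astrocytes to each other. Gja1 (ENSMUSG00000050953.10, chr10:56377330-56402513) was measured at 207, 211 and 209 CPM in N-cre and at 224, 218 and 229 CPM in N-cre;Fox1 mice. The N-cre mice were close to each other, and all 3 N-cre;Fox1 mice lay above them. The log2 fold change was 0.10 ± 0.03, which is 7.07% higher, with an adjusted p of 0.756 in edgeR and a range of 0.08 to 0.12 with each mouse left out. Gjb6 (ENSMUSG00000040055.9, chr14:57123303-57133611) was at 62.1, 40.8 and 44.8 CPM in N-cre and at 51.6, 48.1 and 44.5 CPM in N-cre;Fox1 mice. N-cre replicate 1 was the highest and N-cre replicate 2 the lowest of the 6, and the log2 fold change of -0.04 ± 0.18 was smaller than its error. On the log2 scale Gjb6 had the widest spread of the 9 among N-cre mice.

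Aldh1l1 (ENSMUSG00000030088.15, chr6:90486427-90600203) encodes the folate enzyme 10-formyltetrahydrofolate dehydrogenase, a pan-astrocyte marker. It was at 59.6, 47.4 and 50.3 CPM in N-cre and at 46.8, 49.9 and 46.0 CPM in N-cre;Fox1 mice. N-cre replicate 1 stood above the rest and the other 5 mice overlapped, with a log2 fold change of -0.14 ± 0.09 and a value of -0.03 without N-cre replicate 1. Aldh1l1 lies 22.5 Mb from Gt(ROSA)26Sor on chromosome 6. Aldoc (ENSMUSG00000017390.15, chr11:78322968-78327781) encodes aldolase C, the brain form of a glycolytic enzyme. It ranged from 624 to 704 CPM in N-cre and from 651 to 688 CPM in N-cre;Fox1 mice, with a log2 fold change of 0.03 ± 0.05.

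Fgfr3 (ENSMUSG00000054252.18, chr5:33721674-33737068) encodes a fibroblast growth factor receptor that marks astrocytes and their precursors. It was at 136, 119 and 125 CPM in N-cre and at 121, 102 and 106 CPM in N-cre;Fox1 mice. In each genotype replicate 1 was the highest, and N-cre;Fox1 replicate 1 lay above N-cre replicate 2, so that the groups overlapped. The log2 fold change was -0.21 ± 0.08, which is a level of 0.863 times that of N-cre mice, with an adjusted p of 0.782 in edgeR. It was -0.29 without N-cre;Fox1 replicate 1 and -0.15 without N-cre replicate 1. The lowest of the 6 was N-cre;Fox1 replicate 2, the library with the most choroid plexus marker RNA, and the log2 fold change was -0.17 without both such libraries. G630022F23Rik overlaps Fgfr3 on the opposite strand with a mean of 64.1 expected counts.

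The 9 genes also varied between mice of 1 genotype. The mean log2 difference of the 9 genes from the N-cre mean was 0.10, -0.08 and -0.02 in N-cre replicates 1, 2 and 3 and 0.04, -0.07 and -0.05 in N-cre;Fox1 replicates 1, 2 and 3. Replicate 1 was the highest in each genotype, with 6 and 7 of the 9 genes above the N-cre mean, and these are the 2 libraries with Xist above 1000. The part of sex in this was not tested.

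**Figure D2:**
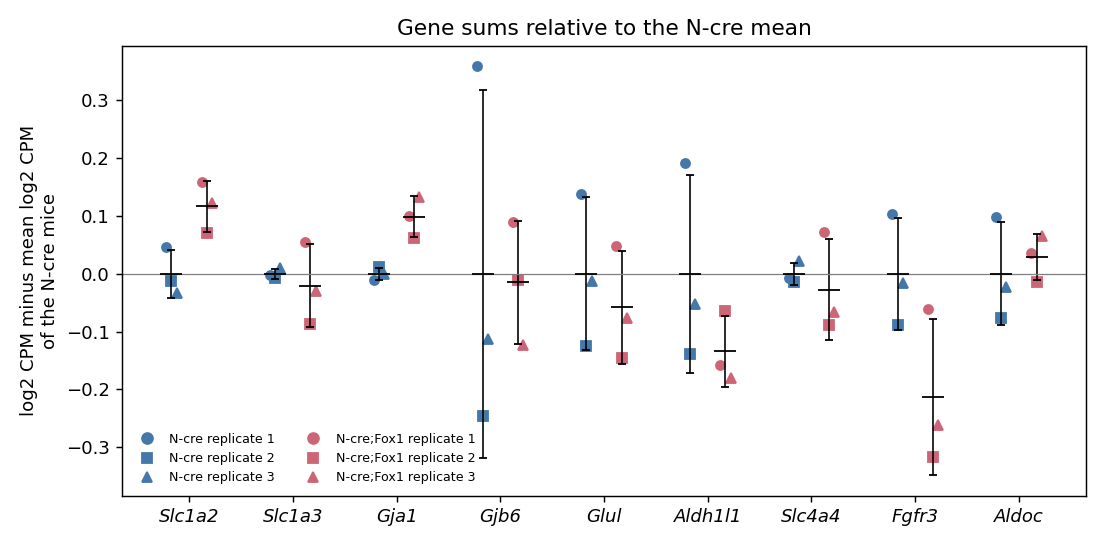
Log2 CPM of each gene in each mouse minus the mean log2 CPM of the 3 N-cre mice; colours mark the genotype, symbols the replicate, and bars the mean and SD of 3 mice. All N-cre;Fox1 points of Slc1a2 and Gja1 lie above the N-cre points, those of the other 7 genes overlap, and Gjb6 spreads from -0.25 to 0.36 within the N-cre mice.

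The 5 genes outside the 9 whose levels over the 6 mice were most like the mean of the 9, among 8051 genes with a mean of at least 20 CPM, were Dennd4b, Zhx3, Atp2b2, Crebzf and Lrrc58. Their root mean square differences from that mean were 0.02 on the log2 scale each, from 0.0170 for Dennd4b to 0.0214 for Lrrc58. In Dennd4b the centred log2 level was 0.11, -0.08 and 0.00 in N-cre and 0.03, -0.07 and -0.01 in N-cre;Fox1 mice.

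At the level of isoforms, 34 of the 75 isoforms of the 9 genes passed the filter on low counts, 17 were at 0 in all mice, and the untested ones had a mean expected count of at most 10.7. In edgeR, 0 of the 34 passed an adjusted p of 0.05, as did 0% of all 50556 isoforms tested. At an unadjusted p under 0.05 there were 5 of 34, of which 3 had higher and 2 had lower values with the transgene, against 4.78% of all isoforms. Without N-cre;Fox1 replicate 3 it was 2. The genotypes did not overlap in 6 of the 34, against 11.5% of all isoforms. The 5 were Slc1a2-201, Slc1a2-202, Gja1-201, Fgfr3-210 and Fgfr3-211. In DESeq2, 1 of the 34, Fgfr3-211, passed, as did 0.425% of all isoforms, and in limma-voom 0 passed.

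Slc1a2 was almost a single isoform. Slc1a2-202, which has the GLT-1a end, held 99.94% ± 0.0014 (SD, n = 3) of the Slc1a2 count in N-cre and 99.96% ± 0.0013 in N-cre;Fox1 mice, and the other 11 isoforms together held 0.0370% to 0.0622%. In CPM it was at 2114, 2027 and 1994 in N-cre and at 2280, 2147 and 2220 in N-cre;Fox1 mice, so that the gene sum and this isoform give the same picture. Its log2 fold change was 0.12 ± 0.04, with an adjusted p of 0.990 in edgeR. Slc1a2-201, which has the GLT-1b end, had expected counts of 75.5, 52.4 and 45.0 in N-cre and of 43.3, 42.4 and 48.9 in N-cre;Fox1 mice, which is 1.23, 1.17 and 1.11 CPM against 0.805, 0.729 and 0.828 CPM. All 3 N-cre;Fox1 mice lay below all 3 N-cre mice in CPM, although the counts are small. The log2 fold change was -0.58 ± 0.19 with an adjusted p of 0.990 in edgeR, opposite in sign to that of Slc1a2-202. The GLT-1b end begins the intron of Slc1a2-202, and the part of unspliced RNA in the Slc1a2-201 count was not measured. Of the 12 Slc1a2 isoforms, 6 were at 0 in all mice.

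Slc1a3, Glul, Gja1 and Slc4a4 likewise had 1 isoform each with at least 97.2% of the gene count in every mouse. Slc1a3-201 held 98.8% ± 0.127 in N-cre and 98.6% ± 0.212 in N-cre;Fox1 mice, and Glul-201 held 99.8% ± 0.0971 and 99.7% ± 0.103. Gja1-201 held 99.8% ± 0.183 and 99.9% ± 0.0237, and its log2 fold change of 0.10 ± 0.03 (adjusted p = 0.990, edgeR) was that of the gene. Slc4a4-207 held 98.0% ± 0.361 and 98.2% ± 0.843. Gjb6 was divided between Gjb6-201, a coding isoform with 79.7% ± 3.30 in N-cre and 77.7% ± 1.11 in N-cre;Fox1 mice, and Gjb6-204, a transcript of 1 exon annotated as a retained intron, with 18.3% ± 3.32 and 20.1% ± 0.936. Aldoc was divided between Aldoc-202, with 77.0% ± 0.385 and 77.4% ± 0.225, and Aldoc-201, with 22.8% ± 0.41 and 22.4% ± 0.225. Both Aldoc isoforms have 1089 coding nt and differ in their first exon and their 3′ end.

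Over the 9 genes, 17 isoforms held at least 5% of their gene's count in a genotype, and the shares were compared with an exact permutation test, two-sided, which cannot give a p under 0.1 with 3 mice against 3. In 4 of the 17 the genotypes did not overlap, against 10.9% of the 31863 such shares over all genes tested. Each of the 4, Slc1a2-202, Aldh1l1-201, Fgfr3-201 and Fgfr3-205, had an exact p of 0.1, the smallest possible, and 0.425 after Benjamini-Hochberg adjustment over the 17. With protein-coding isoforms alone the exact p was 0.2 for Aldh1l1-201 and for Fgfr3-201, where the difference was -10.0 points, and as a share of TPM it was 0.2 for Fgfr3-205, at 2.00 points. Slc1a2-202 kept an exact p of 0.1 in both, with a difference of 0.0228 points of the count and 0.173 points of TPM. Without both libraries rich in choroid plexus markers the differences were 0.0234 points for Slc1a2-202, -5.31 for Aldh1l1-201, -7.00 for Fgfr3-201 and 3.28 for Fgfr3-205. The shares of 1 gene sum to 100% and are not independent of each other, and they rest on how RSEM divided reads between isoforms that are largely the same sequence.

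**Figure D3:**
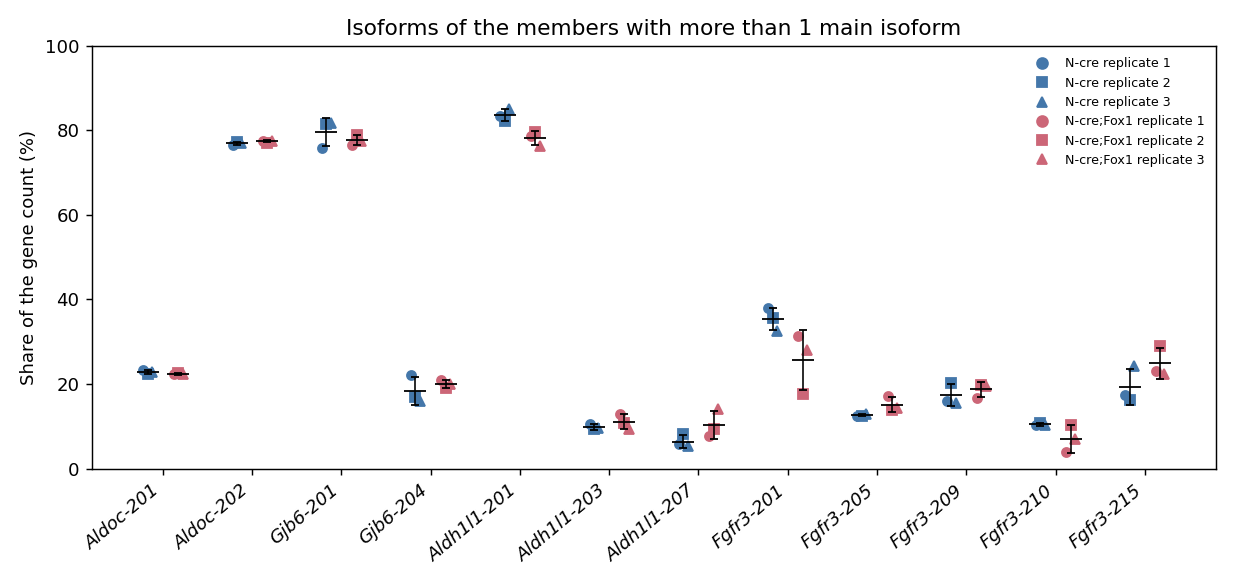
Share of the gene count held by each isoform of Aldoc, Gjb6, Aldh1l1 and Fgfr3 with at least 5% in a genotype, per mouse, with the mean and SD of 3 mice. Aldoc is flat, the N-cre;Fox1 points of Aldh1l1-201 lie below the N-cre points at 78.2% against 83.6%, and those of Fgfr3-201 do so at 25.7% against 35.4%.

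Aldh1l1-201, the main coding isoform, held 83.3%, 82.3% and 85.1% of the Aldh1l1 count in N-cre and 78.7%, 79.7% and 76.3% in N-cre;Fox1 mice. The 3 N-cre;Fox1 mice lay below the 3 N-cre mice, with a mean difference of -5.35 points. Among protein-coding isoforms alone, which leaves out Aldh1l1-207, the difference was -1.86 points and the genotypes overlapped (exact permutation p = 0.2). Aldh1l1-207, which lacks the 52 nt stretch printed above and keeps 1077 coding nt against 2706 in Aldh1l1-201, held 5.69%, 8.14% and 5.29% in N-cre and 7.70%, 9.34% and 14.1% in N-cre;Fox1 mice. N-cre;Fox1 replicate 3 was the highest for this isoform, N-cre replicate 2 lay above N-cre;Fox1 replicate 1, and the difference of 4.01 points had an exact permutation p of 0.2. In the fit over all isoforms Aldh1l1-201 had a log2 fold change of -0.24 ± 0.10 and Aldh1l1-207 of 0.57 ± 0.25, each with an adjusted p of 0.990 in edgeR. Without N-cre;Fox1 replicate 3 the share difference of Aldh1l1-207 was 2.15 points and its log2 fold change 0.32, and without N-cre replicate 1 the log2 fold change of Aldh1l1-201 was -0.14. Aldh1l1-203, with the same coding length as Aldh1l1-201, held 9.80% ± 0.719 and 11.1% ± 1.80.

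Fgfr3 was the gene with the most isoforms in use. Fgfr3-201 held 37.9%, 35.6% and 32.7% of its count in N-cre and 31.4%, 17.7% and 28.1% in N-cre;Fox1 mice, lower in all 3 by a mean of -9.65 points, with the lowest value in N-cre;Fox1 replicate 2. Without that mouse the share difference was -5.63 points and the log2 fold change -0.41. Fgfr3-205, annotated as a retained intron, held 12.5%, 12.4% and 13.0% in N-cre and 17.1%, 13.8% and 14.3% in N-cre;Fox1 mice, higher in all 3, by a mean of 2.46 points and of 1.44 points without N-cre;Fox1 replicate 1. In CPM, however, Fgfr3-205 overlapped between the genotypes, with a log2 fold change of 0.05 ± 0.16, while Fgfr3-201 had a log2 fold change of -0.66 ± 0.27 (adjusted p = 0.990, edgeR). Fgfr3-210 was at 14.0, 13.0 and 12.8 CPM in N-cre and at 4.63, 10.5 and 7.35 CPM in N-cre;Fox1 mice, below the N-cre mice in all 3, with a log2 fold change of -0.82 ± 0.28 and an adjusted p of 0.990 in edgeR. Fgfr3-201 and Fgfr3-210 have the same coding length of 2400 nt, 18 exons each and total lengths of 4218 and 4245 nt. Their sequences were not compared, and how well reads can be divided between them was not measured. Fgfr3-209 held 17.3% ± 2.61 and 18.8% ± 1.74, and Fgfr3-215 19.2% ± 4.32 and 24.9% ± 3.68.

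Fgfr3-211 had the largest fold change among the 34 tested isoforms of the 9 genes. Its expected counts were 105, 24.2 and 49.3 in N-cre and 212, 239 and 250 in N-cre;Fox1 mice, which is 1.71, 0.543 and 1.22 CPM against 3.95, 4.11 and 4.23 CPM. The 3 N-cre;Fox1 mice were close to each other and all above the N-cre mice, which spread widely. The log2 fold change was 1.82 ± 0.39, or 3.53-fold, with an adjusted p of 0.8 in edgeR and of 0.00619 in DESeq2. In simulated isoform counts for this comparison, in which 200 of 50556 isoforms were changed 2-fold, 56.4% of the DESeq2 calls and 12.2% of the edgeR calls were false, and edgeR recovered 65 of the 200. DESeq2 called 282 isoforms there and 215 in the real data. The false share depends on the changes set in the simulation and cannot be carried over to Fgfr3-211. The direction for Fgfr3-211 was the same with each mouse left out, with log2 fold changes from 1.48 to 2.23. The log2 fold change was 1.85 without both libraries rich in choroid plexus markers.

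Fgfr3-211 is an isoform with exon IIIb, the form best known from epithelia, in place of exon IIIc, the form best known from mesenchyme and brain. It also differs elsewhere: its model starts at chr5:33722306, those of Fgfr3-201 and Fgfr3-210 at chr5:33721724. Fgfr3-215, with exon IIIc, shares the start of Fgfr3-211 but has 16 exons against 17. Fgfr3-203, which joins exon IIIb to the start at chr5:33721724, was at 0 in all mice. The part of these other differences in the Fgfr3-211 count was not measured. To describe exon use over isoforms, the counts of the 4 isoforms with exon IIIb, of which 2 were above 0, were set against those of the 6 isoforms with exon IIIc. This grouping was chosen after the values of Fgfr3-211 were seen, so that no test is given. Exon IIIb isoforms took 1.55% (95% Wilson interval 1.29% to 1.87%), 0.597% (0.414% to 0.874%) and 1.15% (0.865% to 1.51%) of these counts in N-cre replicates 1, 2 and 3. They took 4.11% (3.59% to 4.68%), 4.92% (4.35% to 5.57%) and 4.87% (4.32% to 5.50%) in N-cre;Fox1 replicates 1, 2 and 3. The 3 intervals of the N-cre;Fox1 mice lie above those of the N-cre mice, but they are too narrow to measure the error of exon use. They treat every expected count of an isoform as a read of the exon choice, although exon IIIb is 151 nt of the 4020 nt of Fgfr3-211. The error of dividing the other reads between isoforms and the spread between mice are left out. The means were 1.10% ± 0.481 (SD, n = 3) and 4.63% ± 0.457, a difference of 3.53 points, and 3.20 points with shares of TPM. Exon IIIc isoforms held more than 95% of these counts in each of the 6 mice, with expected counts of 4241 to 6903 for the N-cre and of 4614 to 4958 for the N-cre;Fox1 libraries.

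Fgfr3-205 covers both exons within a longer exon, so that reads within exon IIIb can also be assigned to it. The hexamer TGCATG occurs 3 times on the sense strand in the span from 946 nt before exon IIIb to the last base before exon IIIc. It starts 72 nt and 397 nt after the end of exon IIIb, and the third copy ends 793 nt before exon IIIb. The reverse complement CATGCA is not in this span. Of the first 100 nt of 7082 introns that annotated retained-intron transcripts cover, 3.28% hold TGCATG and 2.06% hold CATGCA. The matches describe the sequence, and binding of Rbfox1 to them was not measured here.

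**Figure D4:**
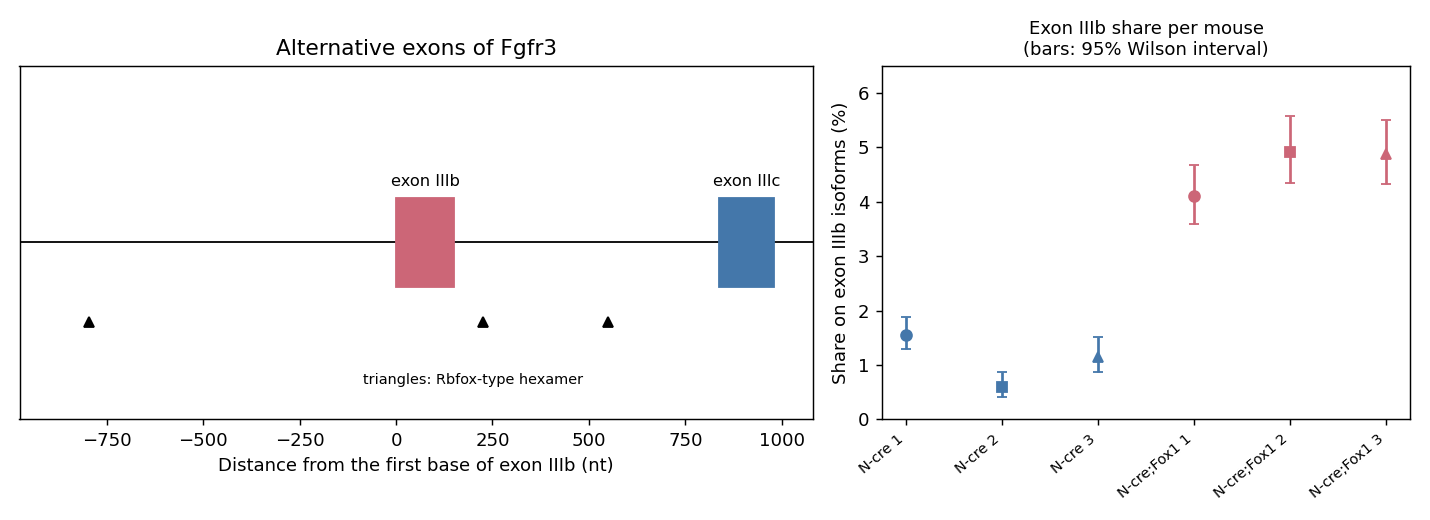
Left, exons IIIb and IIIc of Fgfr3 as boxes along the distance in nt from the first base of exon IIIb, with triangles at the 3 copies of the Rbfox-type hexamer; right, share of counts on exon IIIb isoforms in each mouse, with 95% Wilson intervals. The N-cre mice lie between 0.597% and 1.55% and the N-cre;Fox1 mice between 4.11% and 4.92%.

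Other genes that work with the 9 were followed as lists. Over 7 lists of astrocyte-related genes, 138 of 140 genes were tested, 0 passed an adjusted p of 0.05 in edgeR and 22 had an unadjusted p under 0.05, of which 19 had higher and 3 had lower values with the transgene. This is 15.9% of the 138, against 6.19% of all genes tested, and the median log2 fold change was 0.02, against 0.00 over all genes. The lists were chosen with earlier results of these data known, so that setting these shares side by side is a description and not a test. In DESeq2, 8 genes of the lists passed an adjusted p of 0.05, against 0.264% of all genes: Aqp4, Chrdl1, Clu, Gfap, Gpr37l1, Kcnj10, Ppp1r3c and Tjp1. In simulated gene counts for this comparison, in which 200 of 18924 genes were changed 2-fold, 21.8% of the DESeq2 calls and 10.9% of the edgeR calls were false. DESeq2 called 234 genes there and 50 in the real data. The false share depends on the changes set in the simulation and cannot be carried over to the 8 genes. In limma-voom 0 genes of the lists passed. Without both libraries rich in choroid plexus markers 0 of the 138 passed in edgeR and 26 had an unadjusted p under 0.05, of which 22 had higher and 4 had lower values, and 16 of the 26 were among the 22 found with all libraries. The log2 fold changes were then 0.42 for Gfap, 0.28 for Kcnj10, 0.25 for Aqp4 and -0.80 for Chrdl1.

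Among glutamate and glutamine genes, 10 of 19 were higher and the median log2 fold change was 0.01, with 3 at an unadjusted p under 0.05. These were Slc38a2, a glutamine transporter (0.21 ± 0.07), Glud1, glutamate dehydrogenase (0.10 ± 0.03), and Slc6a9, the glial glycine transporter (-0.15 ± 0.06). Among genes of potassium, bicarbonate and water handling, 9 of 15 were higher, with a median of 0.05. Kcnj10, the inward rectifier Kir4.1, was at 187, 179 and 197 CPM in N-cre and at 226, 213 and 218 CPM in N-cre;Fox1 mice, without overlap, with a log2 fold change of 0.22 ± 0.04 and an adjusted p of 0.307 in edgeR. Aqp4, the water channel of astrocyte endfeet, was at 167, 179 and 177 CPM against 218, 193 and 194 CPM, also without overlap (0.21 ± 0.05, adjusted p = 0.595, edgeR). Slc4a3, an anion exchanger, stood at -0.07 ± 0.03.

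Among 13 tested connexins and junction partners, 8 were higher, with a median of 0.07, and Tjp1, the scaffold protein ZO-1 that binds connexin 43, had a log2 fold change of 0.18 ± 0.04 (adjusted p = 0.350, edgeR). Its values were 100.4, 103 and 100.7 CPM in N-cre and 113, 118 and 112 CPM in N-cre;Fox1 mice, without overlap. Of 17 folate, serine and glycine enzymes, 14 were higher, with a median of 0.05, among them Mthfd1 (0.12 ± 0.04), an enzyme of the folate cycle in which Aldh1l1 acts. Of 27 glycolysis, glycogen and lactate genes, 10 were higher, with a median of -0.02. At an unadjusted p under 0.05 were Slc16a1, the lactate transporter MCT1 (0.18 ± 0.05), Pygm, a glycogen phosphorylase (0.28 ± 0.07), and Ppp1r3c, which targets a phosphatase to glycogen (0.47 ± 0.15). Ppp1r3c was at 38.7, 42.9 and 39.4 CPM in N-cre and at 44.1, 61.6 and 61.5 CPM in N-cre;Fox1 mice.

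Of 17 tested FGF receptors, ligands and targets other than Fgfr3, 10 were higher, with a median of 0.06. Fgfr1 was at 169, 168 and 169 CPM in N-cre and at 192, 177 and 182 CPM in N-cre;Fox1 mice, without overlap, with a log2 fold change of 0.12 ± 0.04 (adjusted p = 0.699, edgeR), where Fgfr3 had -0.21. Fgfrl1, a receptor without kinase domain (0.24 ± 0.09), and Dusp6, a phosphatase that FGF signalling induces (0.23 ± 0.05), were also higher without overlap.

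Among 30 other astrocyte genes, 22 were higher, with a median of 0.03. Gfap, the intermediate filament protein of astrocytes, was at 458, 445 and 428 CPM in N-cre and at 646, 528 and 561 CPM in N-cre;Fox1 mice. All N-cre;Fox1 mice lay above the N-cre mice, with a log2 fold change of 0.38 ± 0.07 and an adjusted p of 0.319 in edgeR and of 2.69e-06 in DESeq2. The others at an unadjusted p under 0.05 were Nfia (0.08 ± 0.04), a transcription factor of astrocyte development, Clu (0.24 ± 0.05), which encodes the secreted chaperone clusterin, S1pr1 (0.13 ± 0.03), Gpr37l1 (0.22 ± 0.05), Dio2 (0.29 ± 0.10), which activates thyroid hormone, and Chrdl1 (-0.71 ± 0.14). Chrdl1, which encodes an astrocyte-secreted synapse-maturing protein, was at 4.31, 4.40 and 4.29 CPM in N-cre and at 2.12, 2.97 and 2.84 CPM in N-cre;Fox1 mice. Among the 9 members the same fit gave 0.12 for Slc1a2, 0.10 for Gja1 and 0.03 for Aldoc. It gave -0.02 for Slc1a3, -0.03 for Slc4a4, -0.04 for Gjb6, -0.06 for Glul, -0.14 for Aldh1l1 and -0.21 for Fgfr3. Whether the genes of this list differ from the members was not tested.

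Markers of other cells were followed in the same way, beside 6.19% of all genes tested with an unadjusted p under 0.05 in edgeR. Whether these lists differ from the astrocyte lists or from all genes was not tested. At an unadjusted p under 0.05 there were 0 of 12 neuronal genes, 1 of 10 oligodendrocyte genes (Mobp, 0.17 ± 0.06), 0 of 7 oligodendrocyte precursor genes, 0 of 10 microglial genes, 1 of 10 endothelial and pericyte genes (Vtn, 0.11 ± 0.05) and 0 of 9 choroid plexus and ependyma genes. The medians of these lists were -0.01, 0.00, 0.02, 0.00, 0.07 and 1.04 on the log2 scale in this order, the last of which follows the 2 libraries named above. The summed level of the 30 other astrocyte genes was 8569 to 8931 CPM in N-cre and 9013 to 9620 CPM in N-cre;Fox1 mice, and that of the 12 neuronal genes 11780 to 12320 CPM and 11050 to 12290 CPM. The share of astrocytes in each sample was not measured.

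**Figure D5:**
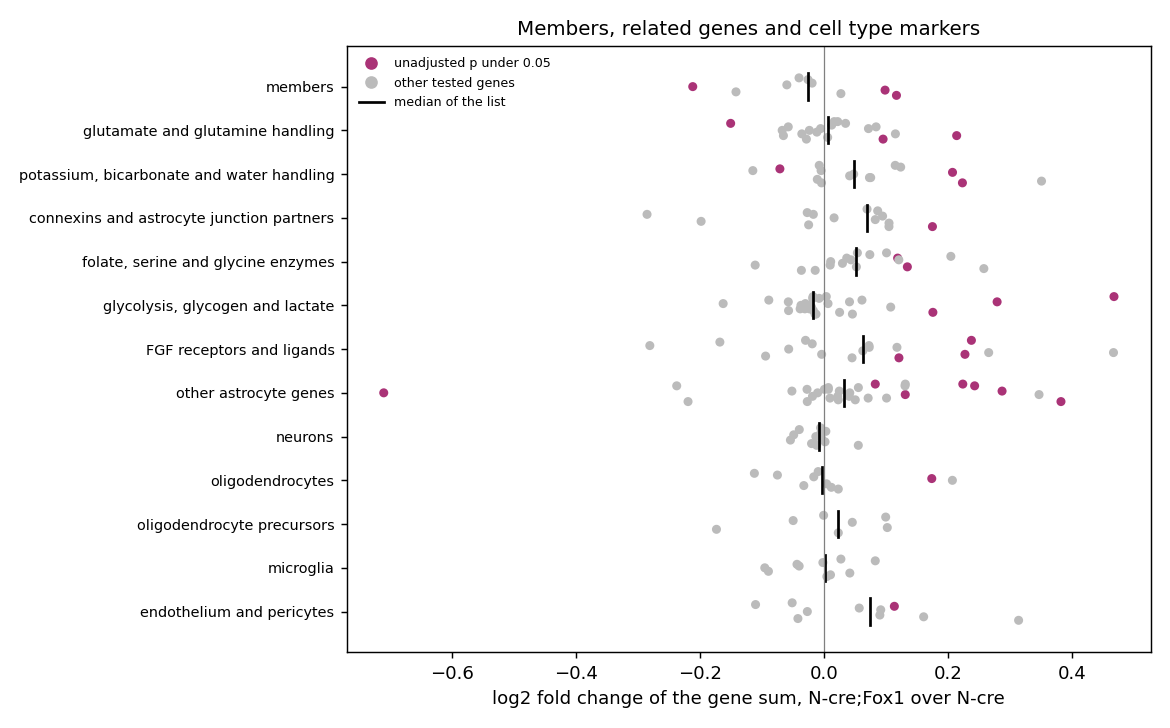
Log2 fold change of each tested gene, N-cre;Fox1 over N-cre, by list, with a black line at the median of the list and colour for an unadjusted p under 0.05; the choroid plexus list, with a median of 1.04, is not drawn. The members lie between -0.21 and 0.12, and the coloured points of the astrocyte lists lie mostly to the right of 0, down to Chrdl1 at -0.71 on the left.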

How the data were processed

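Hippocampal total RNA of 6 mice, 3 of each genotype, was sequenced from TruSeq Stranded Total RNA libraries. The authors ran cutadapt 1.18, STAR 2.5.2b on mm10 and RSEM 1.3.0, and deposited the unnormalized expected counts per isoform. Expected counts were rounded to whole numbers, and genes are sums by symbol. Features were filtered with filterByExpr (minimum count 10, minimum total 15) and tested in R 4.3.3 with edgeR 4.0.16 (quasi-likelihood, robust, TMM), with Benjamini-Hochberg adjustment over all features at a threshold of 0.05. CPM are on the TMM scale. EBSeq, which the study used, was not run here. TPM used lengths of a later GENCODE annotation, which gave a length for 133445 isoforms with 99.78% of the counts. Shares were tested in SciPy with exact permutation tests.

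Genes named are the 9 members, their isoforms with at least 5% of a gene or an unadjusted p under 0.05, list genes with an unadjusted p under 0.05 (1 of which is not reported here), Rbfox1, and the 5 genes nearest to the members' mean. The isoform Rbfox1-202 was named after its values were seen. The members, lists and tests were chosen with earlier results of these data known. Alternatives were DESeq2 1.42.0 (Wald test, or its size factors in edgeR), limma-voom 3.58.1, no filter, unrounded counts, the replicate number as a block and each mouse left out. A term for Xist and leaving out both libraries rich in choroid plexus markers were added after seeing the data. In simulated gene counts with 200 of 18924 genes changed 2-fold, edgeR recovered 179, and 10.9% of its 201 calls were false. The false share depends on the changes set in the simulation. The depth makes counting error small for abundant genes, and the spread of 3 mice per genotype limits the precision.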

Additional observations from a re-analysis of the deposited data

How the results depend on the processing

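Under every alternative run, 0 of the 9 genes had an adjusted p under 0.05, and the signs of Slc1a2, Gja1, Aldh1l1 and Fgfr3 did not change. The number of genes with an unadjusted p under 0.05, 3 of 9, lay between 1 and 4 with each mouse left out, and was 1 without N-cre replicate 3 or without N-cre;Fox1 replicate 3. Differences near 0 changed sign: without both libraries rich in choroid plexus markers Slc1a3 was at 0.0201 and Slc4a4 at 0.0174, and the Glul-201 share differed by 0.0339 points. With each mouse left out the log2 fold change lay between -0.0532 and 0.0152 for Slc1a3, -0.16 and 0.17 for Gjb6, -0.118 and 0.0168 for Glul, -0.0729 and 0.0068 for Slc4a4, -0.0071 and 0.0828 for Aldoc, and -0.14 and 0.16 for Fgfr3-205. Of the 34 isoforms, 1 (Fgfr3-211, log2 fold change 1.82) passed an adjusted p of 0.05 in DESeq2, and the number at an unadjusted p under 0.05, 5 of 34, was 8 with no filter and 2 to 7 with each mouse left out, 2 of them without N-cre;Fox1 replicate 3. As a share of TPM, Slc1a3-201 differed by 0.0591 points, against -0.13 points of the count, and the Slc4a4-207 share differed by -0.228 to 0.593 points with each mouse left out. Of the genes of the lists, 7 passed an adjusted p of 0.05 with no filter, 8 in DESeq2, 1 with the Xist term (Gfap), 1 without N-cre replicate 1 (Dio2), 1 without N-cre;Fox1 replicate 1 (Ppp1r3c) and 0 under the others run. With the length of the longest isoform, the TPM of Slc1a2 was 430.2 and that of Aldoc 559, and the order of the 9 genes stayed. The deviations of same-numbered mice from their genotype mean, over all genes tested, correlated at 0.356, -0.07 and -0.17 for replicates 1, 2 and 3. The replicate 1 mice, the 2 with Xist above 1000, thus deviated in part together, and the others did not. With the replicate block no call changed, and the adjusted p in edgeR was 0.172 for Fgfr3 and 0.975 for Fgfr3-211. With the Xist term the adjusted p of Fgfr3 was 0.108 in edgeR. Of 492 values under alternatives, 468 kept their direction and side of the threshold. The causes were not tested. Shallow isoforms such as Slc1a2-201 are limited by counting error, and all results by 3 mice per genotype.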
